A study of Mus musculus with 42 samples.

Results

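The 10 genes described here belong to the FGF and ERK feedback system: the ligands Fgf4 and Fgf8, the receptors Fgfr1 and Fgfr2, the ETS factors Etv4 and Etv5, and the inhibitors Spry2, Spry4, Dusp6 and Spred1. The list was given as gene names, and all 10 are among the 14296 genes of the deposited files. The samples are W9.5 embryonic stem (ES) cells, a mouse line of strain background 129X1/SvJ, which formed embryoid bodies after withdrawal of LIF, the cytokine that holds ES cells undifferentiated. RNA was taken every 6 h from 0 h to 120 h, and each of the 21 time points has a replicate A and a replicate B, so that there are 42 libraries. Both courses come from 1 cell line, no inhibitor or ligand was added, and the groups are labelled by time since differentiation was induced. The 0 h libraries are the undifferentiated cells. Comparisons with 0 h therefore also take in the withdrawal of LIF and the forming of embryoid bodies, which cannot be told apart from time. Each library is bulk RNA, so fewer cells that express a gene and less RNA per cell cannot be told apart.

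FGF ligands bind receptor tyrosine kinases at the cell surface, and the signal passes through RAS, RAF and MEK to the kinase ERK. Active ERK raises the transcription of Etv4 and Etv5 and of inhibitors that act back on the same pathway: Sprouty and SPRED proteins restrain the activation of RAS and RAF, and Dusp6 removes the activating phosphates from ERK. In mouse ES cells Fgf4 is the ligand known to drive exit from the naive state, while Fgf8 is known for its part in the gastrulating embryo, and RNA of the ERK targets is widely read as a record of recent signalling. ERK activity itself was not measured here.

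Levels are log2 CPM, in which read counts are scaled to a common library size and on which a difference of 1 is a doubling. Between 10120972 and 51652434 reads were counted per library, and 3 reads, the level below which a gene is not reliably detectable, corresponded to between 0.0571 and 0.316 CPM. The ES cell label was checked on 6 markers (Pou5f1, Sox2, Nanog, Klf4, Zfp42 and Esrrb), whose summed level at 0 h was 3404 CPM in replicate A and 3669 CPM in replicate B. Of 5 markers of fibroblast feeder cells, Col3a1 and Dcn had 0 reads in both at 0 h, Col1a2 had 2 in each, Col1a1 had 113 and 139, and Thy1 had 456 and 533. Together the 5 came to 24.2 CPM in replicate A and 28 CPM in replicate B, and the part of such cells in the 0 h levels was not tested. The duplicates at 96 h stood apart. The median SD between them, taken over all genes, was 0.288 log2 units, against 0.0636 to 0.194 at the other 20 time points, and 6 of the 10 genes lay more than 0.5 log2 units apart. The 4 primitive streak markers (T, Mixl1, Eomes and Evx1) summed to 101 CPM in replicate A at 96 h and 474 CPM in replicate B. For comparisons with 96 h, values without 1 of its libraries or with a neighbouring time point in its place are therefore given beside the calls they change.

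Promoter sequence is shown for 3 of the inhibitors described below and for Fgf4. The windows are the 250 bases before the annotated start, from RefSeq on GRCm38.p6, written 5′ to 3′ on the strand of the gene. Capitals mark GGAA, the core of the sequence that ETS factors such as Etv4 and Etv5 bind, or TTCC where it lies on the other strand.
Dusp6, chr10:99262981-99263230, plus strand: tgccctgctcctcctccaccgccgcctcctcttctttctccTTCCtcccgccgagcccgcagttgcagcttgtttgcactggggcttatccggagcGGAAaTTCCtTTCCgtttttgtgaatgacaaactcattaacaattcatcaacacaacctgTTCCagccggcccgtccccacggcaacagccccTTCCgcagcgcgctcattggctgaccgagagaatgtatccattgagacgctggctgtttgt
Spry2, chr14:105896820-105897069, minus strand: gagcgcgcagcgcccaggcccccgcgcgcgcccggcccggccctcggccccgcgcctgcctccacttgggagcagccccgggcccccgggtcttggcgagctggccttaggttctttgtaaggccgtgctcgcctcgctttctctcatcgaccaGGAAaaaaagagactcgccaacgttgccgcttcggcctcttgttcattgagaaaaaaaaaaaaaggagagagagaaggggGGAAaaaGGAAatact
Spred1, chr2:117120821-117121070, plus strand: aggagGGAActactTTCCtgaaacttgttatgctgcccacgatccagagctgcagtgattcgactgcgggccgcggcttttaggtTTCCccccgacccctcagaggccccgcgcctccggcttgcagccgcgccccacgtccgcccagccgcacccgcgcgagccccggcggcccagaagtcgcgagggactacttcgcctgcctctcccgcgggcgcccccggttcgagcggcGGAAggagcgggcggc
Fgf4, chr7:144861136-144861385, plus strand: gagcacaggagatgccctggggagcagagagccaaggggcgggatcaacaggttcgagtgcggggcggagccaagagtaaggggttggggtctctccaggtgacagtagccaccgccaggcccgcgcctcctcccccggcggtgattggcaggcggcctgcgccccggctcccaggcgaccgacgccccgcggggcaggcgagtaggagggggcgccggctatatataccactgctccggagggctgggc
The core occurred 6 times in the Dusp6 window, 4 times in that of Spred1, 3 times in that of Spry2 and 0 times in that of Fgf4. It is a short motif that 93.4% of 32851 RefSeq windows of this length hold, with a median of 3 matches, so that its presence sets these genes apart from few others. Of the windows not printed, that of Fgfr2 held 2 cores, and the windows of the 2 annotated starts of Etv5 held 0 and 4. The relation of the number of cores to the levels was not tested. The longer ETS forms CCGGAA and GGAAGT, found in 12% and 19.7% of all windows, and the AP-1 motif TGANTCA, found in 6.75%, had no match in these 4 on either strand, and 1 Etv5 window held GGAAGT once. CCAAT, found in 33.8% of windows, had 1 match each in Dusp6 and Fgf4, on the minus strand. A match here is a run of letters and no evidence of binding.

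**Figure D1:**
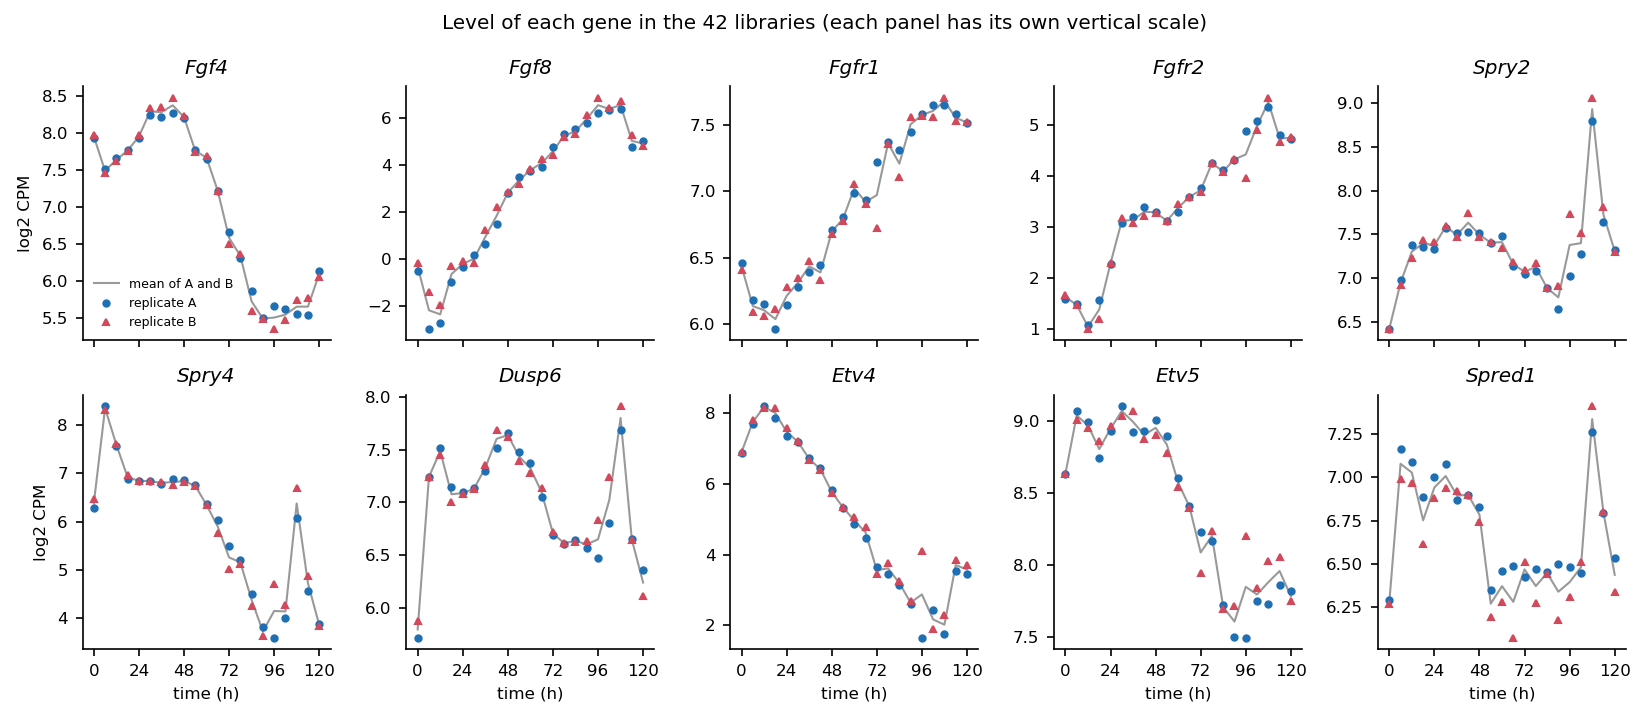
Level in log2 CPM (vertical axis, a separate scale in each panel) against time in h (horizontal axis) for the 10 genes. Circles are replicate A, triangles replicate B and the line is their mean. Spry4, Spry2, Dusp6 and Spred1 have a peak at 108 h in both replicates. Fgf8, Fgfr1 and Fgfr2 dip early, have their highest mean at 108 h and end below it but above their start. Etv4 has its highest level at 12 h and its lowest mean at 108 h.

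Every one of the 10 genes changed at some time by limma's F-test over the 20 differences from 0 h, at an adjusted p (Benjamini-Hochberg over all genes) under 0.0001. Of all genes tested, 74.6% did so, so this count says little about the 10 as a group. Their adjusted p ranged from 2.06e-22 for Fgf4 to 5.93e-09 for Spred1. Only 0.406% of genes had a higher F than Fgf4, whereas 39% had a higher F than Spred1. The distance from the lowest to the highest mean was 8.89 log2 units for Fgf8, 6.17 for Etv4, 4.62 for Spry4 and 4.38 for Fgfr2. It lay between 1.07 and 2.88 for the other 6 genes.

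From 48 h to 96 h, and between 0 h and 120 h, Fgf4 and Fgf8 differed in opposite directions. In the compared steps up to 48 h the differences of both had the same sign. Fgf4 (chr7:144861386-144865245 in RefSeq), the ligand of the undifferentiated cell, had 7.93 log2 CPM in replicate A and 7.98 in replicate B at 0 h. At 42 h, its highest point, it had 8.27 and 8.48. At 72 h it had 6.66 and 6.50, at 90 h 5.5 and 5.48, and at 120 h 6.14 and 6.05. The levels of both replicates at 72 h, 90 h and 120 h lay below both at 0 h. The difference of -0.47 from 0 h to 6 h (SE 0.102, adjusted p = 0.000335, limma) passed the threshold only with quantile normalization (-0.76, adjusted p = 2.81e-06). Fgf4 fell by 1.63 from 48 h to 72 h (SE 0.102, adjusted p = 6.14e-12, limma) and by 1.08 from 72 h to 96 h (SE 0.102, adjusted p = 1.66e-08). With 90 h in place of 96 h, an alternative chosen after the duplicates at 96 h had been seen, the second fall was 1.09 (adjusted p = 4.64e-08). Over the whole course it was 3.62-fold lower at 120 h than at 0 h (log2 -1.86, SE 0.102, adjusted p = 1.63e-14).

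Fgf8 (chr19:45736491-45742941), a ligand of the primitive streak and early mesoderm, began near the limit of detection. It had 16 reads in replicate A and 21 in replicate B at 0 h, 3 and 6 reads at 6 h, and 4 and 10 at 12 h. From there its level went up at nearly every step, to 2.79 and 2.82 log2 CPM at 48 h, 4.73 and 4.4 at 72 h, and 6.35 and 6.72 at 108 h, when 2776 and 2940 reads were counted. At 114 h it had 4.76 and 5.25, below both libraries at 108 h. The rise from 24 h to 48 h was 8.13-fold (log2 3.02, SE 0.348, adjusted p = 1.07e-07, limma), and at 120 h Fgf8 was 37.7-fold higher than at 0 h (log2 5.24, SE 0.348, adjusted p = 7.45e-13). The steps from 48 h to 72 h (1.76, adjusted p = 0.000237) and from 72 h to 96 h (1.96, adjusted p = 0.000151) did not pass the threshold of 0.0001, nor did that from 72 h to 90 h (1.38, adjusted p = 0.00607). The first 2 passed it with the replicate letter as a block (adjusted p = 4.47e-05 and 2.58e-05) and with voom weights (adjusted p = 2.35e-06 and 2.01e-08). The difference of -1.63 from 108 h to 120 h (adjusted p = 0.000904) also passed with voom weights (adjusted p = 3.58e-07).

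The first change of Fgf8, a decrease of 1.85 from 0 h to 6 h (SE 0.348, adjusted p = 5.62e-05, limma), rests on few reads. Summed over both replicates, 9 reads at 6 h and 37 at 0 h gave a ratio of 0.26 for 6 h to 0 h after scaling for library size, with an exact 95% interval of 0.11 to 0.548 that covers counting error only. The call was lost with voom weights (adjusted p = 0.0588), with quantile normalization (adjusted p = 0.00228), on the log2(CPM + 1) scale (adjusted p = 0.0286) and with adjustment over all 8 comparisons together (adjusted p = 0.000115). Without the 6 h library of replicate A the decrease was 1.06 (adjusted p = 0.0117), without 0 h replicate A 2.02 (adjusted p = 0.000356) and without 0 h replicate B 1.67 (adjusted p = 0.00222). The return from 6 h to 24 h (1.97, SE 0.348, adjusted p = 5.17e-05) has the same limit, being 1.18 without 6 h replicate A (adjusted p = 0.00966). It also missed the threshold without either 24 h library (2.09 and 1.86, adjusted p = 0.000592 and 0.00185) and with voom weights (adjusted p = 0.0554).

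To compare ligands, CPM was divided by the length of the exons in kb and summed over the 12 genes of the FGF ligand family in the files, which include Fgf11, Fgf13 and Fgf14, relatives that are not secreted. On this scale Fgf4 made up 79.9% of the sum at 0 h, which came down to 52.7% by 48 h and to 7.17% by 108 h. Fgf8 had 0.591% of the sum at 0 h, and 2.93% was reached by 48 h. Its share was highest at 96 h, at 44.2% (replicates A and B had 38.1% and 49.3%), between 37.4% at 90 h and 35.8% at 102 h. Its mean first exceeded that of Fgf4 at 78 h, when the values were 27.9 and 25.4 CPM per kb. Fgf5, a marker of the epiblast after exit from the naive state, took the largest share at 108 h, 49.4%. It rose by 5.39 from 6 h to 24 h (SE 0.176, adjusted p = 9.47e-19, limma) and by 3.30 from 24 h to 48 h (adjusted p = 1.24e-13).

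Fgf15 was highest at 48 h, at 30.4 CPM per kb or 17.2% of the sum. Fgf17, named after its values were seen, rose by 1.54 from 0 h to 6 h (SE 0.207, adjusted p = 4.94e-07, limma), when its share was 17.7% against 5.1% at the start. The total of the 12 was 97.1 CPM per kb at 0 h, 80.9 at 6 h and 176.5 at 48 h. After 107 at 84 h it came to its overall maximum, 220.2, at 108 h, and it ended at 95.9.

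**Figure D2:**
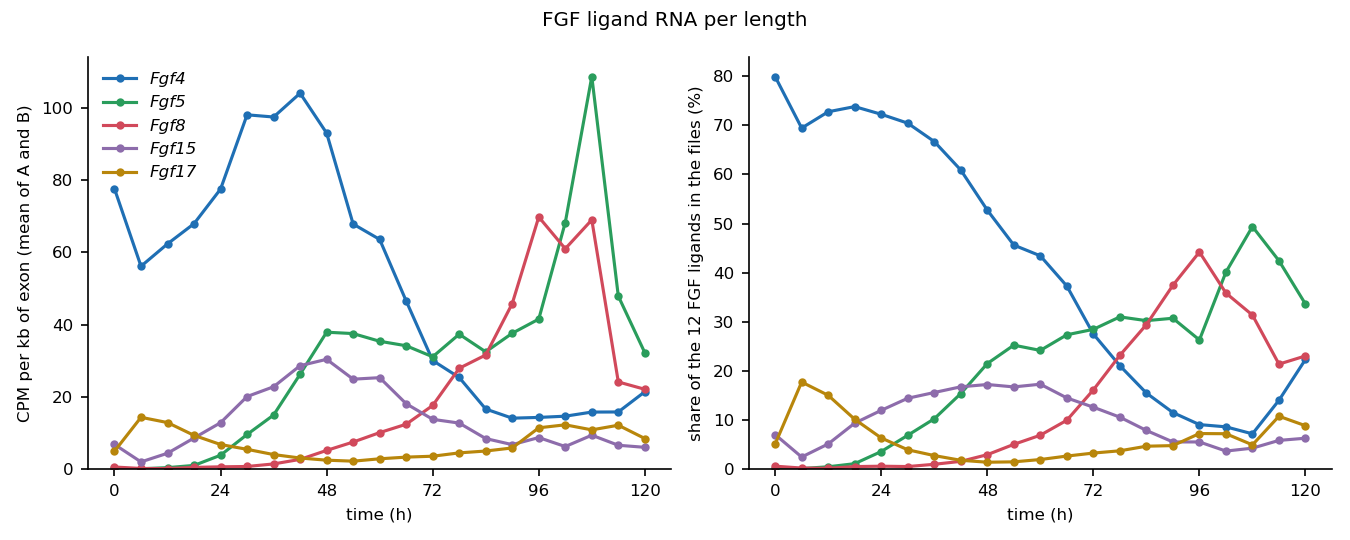
Left, mean of both replicates in CPM per kb of exon for Fgf4, Fgf5, Fgf8, Fgf15 and Fgf17 against time in h. Right, the share of each in the sum of all 12 genes of the ligand family in the files, in percent. Fgf4 goes from 79.9% at 0 h to 7.17% at 108 h, and the Fgf5 and Fgf8 lines lie above it from 78 h onwards. At 120 h the order of Fgf8 and Fgf4 differed between replicates A and B (4.58 and 4.35 against 4.47 and 4.38 log2 CPM per kb).

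The receptors both ended higher than they began. Fgfr1 (chr8:25518759-25575718), which binds Fgf4 and is the main FGF receptor of ES cells, had 6.46 and 6.41 log2 CPM at 0 h. It was lowest at 18 h (5.96 and 6.11) and highest at 108 h (7.65 and 7.71), and at 120 h it had 7.52 in both replicates. The net rise was 2.12-fold (log2 1.08, SE 0.103, adjusted p = 9.5e-10, limma). It was gradual, and of the 7 consecutive steps tested only that from 72 h to 96 h passed the threshold (0.60, SE 0.103, adjusted p = 9.37e-05). That call depends on 72 h replicate B, which lay 0.49 below replicate A. Without that library the step was 0.36 (adjusted p = 0.0116), without either 96 h library it was 0.59 or 0.61 (adjusted p = 0.000568 and 0.000754), and with 90 h in place of 96 h it was 0.53 (adjusted p = 0.000614).

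Fgfr2 (chr7:130162451-130266808), the receptor that marks extraembryonic endoderm and later epithelia, was low at first, with 1.60 and 1.67 log2 CPM at 0 h and 1.09 and 1.01 at 12 h. It had 3.07 and 3.17 at 30 h, stayed between 3.07 and 3.38 in both replicates from 30 h to 48 h, and then had 4.31 and 4.33 at 90 h and 5.35 and 5.53 at 108 h. No library from 24 h on overlapped those at 0 h. At 120 h Fgfr2 was 8.60-fold higher than at 0 h (log2 3.10, SE 0.168, adjusted p = 1.08e-14, limma). The step from 24 h to 48 h was 1.0 (SE 0.168, adjusted p = 3.45e-05). It missed the threshold without any 1 of its 4 libraries (0.98 to 1.01, adjusted p from 0.000749 to 0.000994), with voom weights (adjusted p = 0.00044) and with quantile normalization (adjusted p = 0.000322). From 72 h to 96 h Fgfr2 differed by 0.70 (SE 0.168, adjusted p = 0.00288, limma), and by 1.15 without 96 h replicate B. Its rise from 96 h to 108 h (1.02, SE 0.168, adjusted p = 3.44e-05) turns on 96 h, where replicate A had 4.87 and replicate B 3.96. Without replicate B of 96 h it was 0.56 (adjusted p = 0.00228), and against 102 h it was 0.46 (adjusted p = 0.0616). Without 108 h replicate A it was 1.11 and without 108 h replicate B 0.93 (adjusted p = 0.000336 and 0.00191).

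On the per-length scale Fgfr1 exceeded Fgfr2 at every time given here, with means of 3.13 against -1.74 log2 CPM per kb at 0 h and 4.21 against 1.37 at 120 h. The means of Fgfr3 and Fgfr4, the other signalling receptors, were lower than that of Fgfr1 per length at all 21 time points. Fgfr4 had 2.02 and 1.99 log2 CPM at 0 h and -0.43 and -0.31 at 120 h, a decrease of 2.37 (SE 0.349, adjusted p = 1.93e-06, limma). Fgfr3 rose by 2.40 from 48 h to 72 h (SE 0.419, adjusted p = 5.59e-05).

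The ETS factors Etv4 and Etv5, transcribed in response to FGF signalling, both fell from 48 h to 72 h and between 0 h and 120 h, by unlike amounts. In other steps, such as those from 24 h to 48 h and from 108 h to 120 h, their signs were unlike. The differences of Etv5 in these 2 steps were 0.0065 and -0.097. Etv4 (chr11:101769747-101785310) had 6.89 and 6.92 log2 CPM at 0 h and 8.20 and 8.16 at 12 h. Then it went down at every step to 72 h, where it had 3.65 and 3.46. At 108 h it had 1.75 and 2.28. Its highest mean was 72.1 times its lowest, and the reads per library ran from 11858 to 68. From 24 h to 48 h it differed by -1.70 (SE 0.371, adjusted p = 0.000747, limma), which passed the threshold only with voom weights (adjusted p = 7.46e-06). Etv4 fell by 2.22 from 48 h to 72 h (SE 0.371, adjusted p = 3.34e-05, limma) and was 10-fold lower at 120 h than at 0 h (log2 -3.32, SE 0.371, adjusted p = 2.03e-08).

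The residual SD of Etv4, 0.412 on the log2 scale, is over all 21 time points and includes the gap at 96 h, where replicate A had 1.65 and replicate B 4.09. Its fall from 48 h to 72 h missed the threshold without any 1 of the 4 libraries (-2.32 to -2.12, adjusted p from 0.000395 to 0.000991) and with quantile normalization (adjusted p = 0.000143). From 72 h to 96 h the difference was -0.69 (adjusted p = 0.168, limma), -1.91 without 96 h replicate B (adjusted p = 1.26e-07) and 0.54 without replicate A (adjusted p = 0.0326). With 90 h in place of 96 h it was -0.92 (adjusted p = 0.0828). From 96 h to 108 h Etv4 differed by -0.86 (adjusted p = 0.0747), by -2.08 without 96 h replicate A (adjusted p = 9.05e-09) and by 0.36 without 96 h replicate B (adjusted p = 0.176). The early difference of 0.85 from 0 h to 6 h did not pass the threshold, nor did 1.28 from 0 h to 12 h (SE 0.371, adjusted p = 0.00443), although all 4 libraries at 6 h and 12 h exceeded both at 0 h. The libraries at 114 h (3.54 and 3.86) and 120 h (3.44 and 3.71) lay above those at 108 h, by a difference of 1.57 from 108 h to 120 h that did not pass the threshold (SE 0.371, adjusted p = 0.00241).

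Etv5 (chr16:22381313-22439570) was the highest of the 10 genes at 0 h per length, and up to 48 h all its libraries lay between 8.63 and 9.10 log2 CPM. It had 8.63 in both replicates at 0 h, 9.01 and 8.9 at 48 h, 8.23 and 7.94 at 72 h, and 7.82 and 7.75 at 120 h. It fell by 0.87 from 48 h to 72 h (SE 0.138, adjusted p = 1.79e-05, limma) and was 1.80-fold lower at 120 h than at 0 h (log2 -0.85, SE 0.138, adjusted p = 8.51e-06). The step from 48 h to 72 h missed the threshold without 48 h replicate A (-0.81), 48 h replicate B (-0.92) or 72 h replicate B (-0.72), with adjusted p from 0.000266 to 0.00136, and with quantile normalization (adjusted p = 0.000844). The net decrease missed it without any 1 of its 4 libraries (-0.88 to -0.82, adjusted p from 0.000156 to 0.000361).

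All 4 inhibitors had a peak at 108 h, which was the highest point of Spry2, Dusp6 and Spred1, whereas Spry4 was highest at 6 h. Spry4 (chr18:38586247-38601347), a Sprouty protein that blocks the path to ERK, had 6.28 and 6.47 log2 CPM at 0 h and 8.39 and 8.30 at 6 h. It stood at 6.84 and 6.85 at 24 h and stayed between 6.73 and 6.87 in both replicates from 24 h to 54 h. At 72 h it had 5.49 and 5.02, and at 90 h 3.82 and 3.63. The rise to 6 h was 3.92-fold (log2 1.97, SE 0.213, adjusted p = 1.28e-08, limma), and it was followed by a fall of 1.5 to 24 h (SE 0.213, adjusted p = 2.45e-06). A second fall, of 1.58, came from 48 h to 72 h (SE 0.213, adjusted p = 1.81e-06). From 72 h to 90 h it fell again by 1.53 (SE 0.213, adjusted p = 1.41e-05), whereas the difference to 96 h was -1.11 (adjusted p = 0.000363) and -1.66 without 96 h replicate B (adjusted p = 4.06e-07). At 120 h Spry4 was 5.72-fold lower than at 0 h (log2 -2.52, SE 0.213, adjusted p = 1.09e-10).

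The fall of Spry4 from 6 h to 24 h sat just above the threshold without 6 h replicate A (-1.46, adjusted p = 0.000136), 24 h replicate A (-1.5, adjusted p = 0.000105) or 24 h replicate B (-1.5, adjusted p = 0.0001002). That from 48 h to 72 h did so without 48 h replicate A (-1.55, adjusted p = 0.0001004) or 72 h replicate B (-1.35, adjusted p = 0.000234).

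Dusp6 (chr10:99263231-99267489), the phosphatase that inactivates ERK, had 5.72 and 5.87 log2 CPM at 0 h, its lowest point. It had 7.24 in both replicates at 6 h and 7.52 and 7.45 at 12 h. The rise to 6 h was 2.72-fold (log2 1.44, SE 0.115, adjusted p = 4.87e-11, limma). At 24 h Dusp6 had 7.10 and 7.07, and at 48 h 7.65 and 7.62. It fell by 0.93 from 48 h to 72 h (SE 0.115, adjusted p = 4.52e-07) and then stayed between 6.57 and 6.65 in both replicates at 84 h and 90 h. At 120 h it had 6.36 and 6.12, a difference of 0.44 from 0 h that did not pass the threshold (SE 0.115, adjusted p = 0.00187).

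Spry2 (chr14:105891947-105896819), the other Sprouty gene described here, had 6.42 in both replicates at 0 h, 6.98 and 6.92 at 6 h, and 7.38 and 7.23 at 12 h. The difference at 6 h was 0.53 (SE 0.139, adjusted p = 0.00202, limma) and did not pass the threshold, while that at 12 h was 0.88 and did (SE 0.139, adjusted p = 5.21e-06). It stayed between 7.33 and 7.74 in both replicates from 24 h to 60 h, without the descent of Spry4. Per length, Spry4 minus Spry2 was -1.24 log2 units at 0 h and -4.25 at 90 h. At 120 h Spry2 was 1.85-fold higher than at 0 h (log2 0.89, SE 0.139, adjusted p = 4.93e-06). This call was lost without any 1 of its 4 libraries (0.88 to 0.90, adjusted p from 0.000138 to 0.000178).

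Spred1 (chr2:117121071-117182279), which holds back the activation of RAF, had 6.29 and 6.27 at 0 h and 7.16 and 6.99 at 6 h. The rise was 1.74-fold (log2 0.80, SE 0.122, adjusted p = 3.33e-06, limma). It missed the threshold without 6 h replicate A (0.71, adjusted p = 0.000325), without 0 h replicate B (0.79, adjusted p = 0.000136) and with quantile normalization (0.61, adjusted p = 0.000148). From 54 h to 102 h all 18 libraries lay between 6.07 and 6.51. The difference between 120 h and 0 h was 0.16, with a 95% interval of -0.092 to 0.41.

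At 108 h the inhibitors rose together, and at 114 h all 4 were lower again. Spry4, Spry2 and Spred1 were then still above their 102 h levels in both replicates. Spry4 had 4.0 and 4.28 log2 CPM at 102 h, 6.06 and 6.68 at 108 h, and 4.57 and 4.88 at 114 h. Spry2 had 7.28 and 7.52, then 8.80 and 9.06, then 7.64 and 7.81. Dusp6 had 6.81 and 7.24, then 7.69 and 7.91, then 6.65 and 6.64. For each of these 3 genes both libraries at 108 h exceeded all 4 libraries at the neighbouring times, and the same held for Spred1, with 6.45 and 6.51 at 102 h, 7.26 and 7.41 at 108 h, and 6.80 in both at 114 h.

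From 96 h to 108 h Spry4 rose 4.67-fold (log2 2.22, SE 0.213, adjusted p = 1.02e-08, limma), Spry2 2.93-fold (1.55, SE 0.139, adjusted p = 3.24e-09), Dusp6 2.22-fold (1.15, SE 0.115, adjusted p = 1.8e-08) and Spred1 1.92-fold (0.94, SE 0.122, adjusted p = 1.25e-06). With 102 h in place of 96 h all 4 passed again, at 2.23, 1.53, 0.78 and 0.86, with adjusted p of 3.3e-08, 1.49e-08, 2.21e-05 and 1.46e-05. From 108 h to 120 h the same 4 fell, by 2.52 for Spry4 (SE 0.213, adjusted p = 2.23e-09), 1.62 for Spry2 (SE 0.139, adjusted p = 2.71e-09), 1.56 for Dusp6 (SE 0.115, adjusted p = 2.16e-10) and 0.90 for Spred1 (SE 0.122, adjusted p = 4.35e-06). At 114 h already, Spry4, Spry2 and Dusp6 were lower than at 108 h by 1.65, 1.20 and 1.15 (adjusted p = 5.61e-06, 1.08e-06 and 9.14e-08), and Spred1 differed by -0.54 (adjusted p = 0.0023). The rise and the fall share the 108 h libraries, so they are not separate evidence. The calls for Spred1 were lost without 108 h replicate B, for the rise (0.87, adjusted p = 0.000154) and the fall (-0.83, adjusted p = 0.00043), and without 120 h replicate B for the fall (-0.80, adjusted p = 0.000576).

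The 108 h level can also be set against the mean of 102 h and 114 h in each course, as a description. Spry4 was higher by 1.78 in replicate A and 2.11 in replicate B, a mean that 0.189% of all genes exceeded. For Spry2 the differences were 1.34 and 1.39 (0.532% of genes larger), for Dusp6 0.96 and 0.97 (1.77%), for Fgf8 0.81 and 0.88 (2.67%), for Spred1 0.64 and 0.76 (4.39%) and for Fgfr2 0.42 and 0.75 (6.65%). Etv5 stood at -0.074 and 0.082, Fgf4 at -0.018 and 0.12, and Etv4 at -1.23 and -0.60. The median over all genes was 0.00302, and 227 genes, 1.59% of them, exceeded 1. Thus the 4 inhibitors stood high at 108 h in both courses while the ETS factors, also targets of FGF signalling, did not. The difference of Etv5 between 108 h and 102 h was 0.085 (SE 0.138, adjusted p = 0.76, limma).

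The same measure was taken for 11 other genes of the pathway. Dusp5, a nuclear ERK phosphatase, stood 1.80 above its neighbours at 108 h (0.245% of all genes larger), and the immediate early genes Egr1 and Fos, which ERK switches on, stood 1.40 and 1.36 above theirs (0.49% and 0.56%). Fgf5 stood at 0.93 (1.98%), Dusp4 at 0.80 (3.19%) and Il17rd, a membrane inhibitor of FGF signalling, at 0.76 (3.66%). Lower in the order were Fgf15 with 0.57 (6.99%), Fgfr4 with 1.09 in replicate A and 0.046 in replicate B (7.16%), the Sprouty gene Spry1 with 0.31 (17.5%), Fgfr3 with 0.064 (41.1%) and Fgf17 with -0.17 (72.6%). Other markers moved at the same time. The neuroectoderm markers Sox1, Pax6 and Nes summed to 116 and 124 CPM at 96 h, 355 and 328 CPM at 108 h, and 201 and 186 CPM at 120 h. Most of the sum at 108 h was Nes, with 312 and 282 CPM. Sox1 had no peak there, with 41.6 and 43.8 CPM at 108 h and 45.5 and 49.1 CPM at 120 h. The 4 epiblast markers, of which Fgf5 is one, summed to 585 and 400 CPM at 96 h, 657 and 754 CPM at 108 h, and 399 and 357 CPM at 120 h. They did not move alike. Fgf5 alone had 251 and 292 CPM at 108 h, whereas Otx2 had 122 and 66.5 CPM at 96 h, 48.8 and 61 CPM at 108 h, and 70.5 and 63.6 CPM at 120 h. The part of these cell types in the 108 h levels was not tested.

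**Figure D3:**
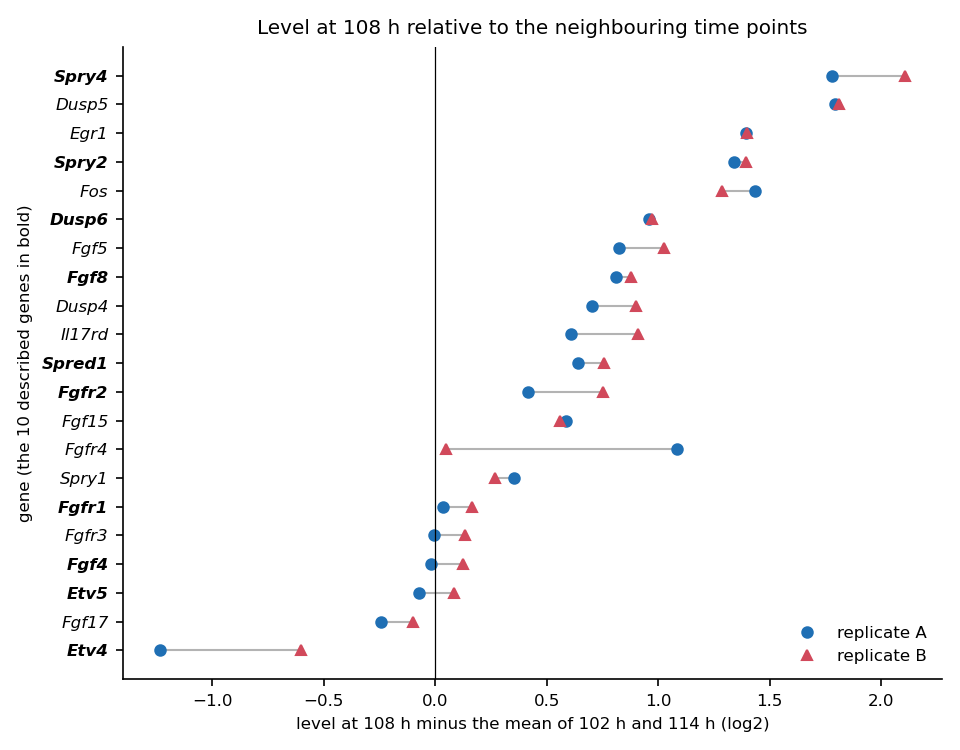
Level at 108 h minus the mean of 102 h and 114 h of the same replicate (horizontal axis, log2 units) for the 10 genes, in bold, and 11 other genes of the pathway. Circles are replicate A and triangles replicate B. Spry4, Spry2 and Dusp6 lie at 0.96 or more in both replicates, Etv5 and Fgf4 near 0, and Etv4 at -1.23 and -0.60.

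Counted over the 10 genes, the calls at an adjusted p under 0.0001 (limma) were spread as follows, with the share of all 14296 genes called in that direction beside each count. At 6 h against 0 h, 3 genes were higher (Spry4, Dusp6 and Spred1, 11.8% of all genes) and 1 lower (Fgf8, 14.5%). With 12 h in place of 6 h, chosen after the data had been seen, 4 were higher (those 3 and Spry2, 10.6%) and 1 lower (Fgf8, 15.6%). At 24 h against 6 h, 1 was higher (Fgf8, 5.64%) and 1 lower (Spry4, 5.76%), and at 48 h against 24 h, 2 were higher (Fgf8 and Fgfr2, 5.27%) and 0 lower (3.7%).

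The step from 48 h to 72 h had 5 lower (Fgf4, Etv4, Etv5, Spry4 and Dusp6, against 3.78% of all genes) and 0 higher (5.6%). Of the remaining 5 genes, Spry2 and Spred1 differed by -0.42 and -0.32, and Fgf8, Fgfr2 and Fgfr1 by 1.76, 0.43 and 0.28, without passing the threshold. At 96 h against 72 h, 1 was higher (Fgfr1, 2.39%) and 1 lower (Fgf4, 1%). With 90 h in place of 96 h, 0 were higher (1.03%) and 2 lower (Fgf4 and Spry4, 0.434%).

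At 108 h against 96 h, 5 were higher (the 4 inhibitors and Fgfr2, 3.85%) and 0 lower (3.13%). With 102 h in place of 96 h, 4 were higher (the inhibitors, 1.37%) and 0 lower (0.672%). At 120 h against 108 h, 0 were higher (2.39%) and 4 lower (the inhibitors, 1.73%), and at 114 h against 108 h, 0 were higher (0.986%) and 3 lower (Spry4, Spry2 and Dusp6, 0.734%). Over the whole course, at 120 h against 0 h, 4 were higher (Fgf8, Fgfr2, Fgfr1 and Spry2, 12.9%) and 4 lower (Etv4, Spry4, Fgf4 and Etv5, 10.1%). Consecutive comparisons share a time point, so their counts are not independent of each other.

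**Figure D4:**
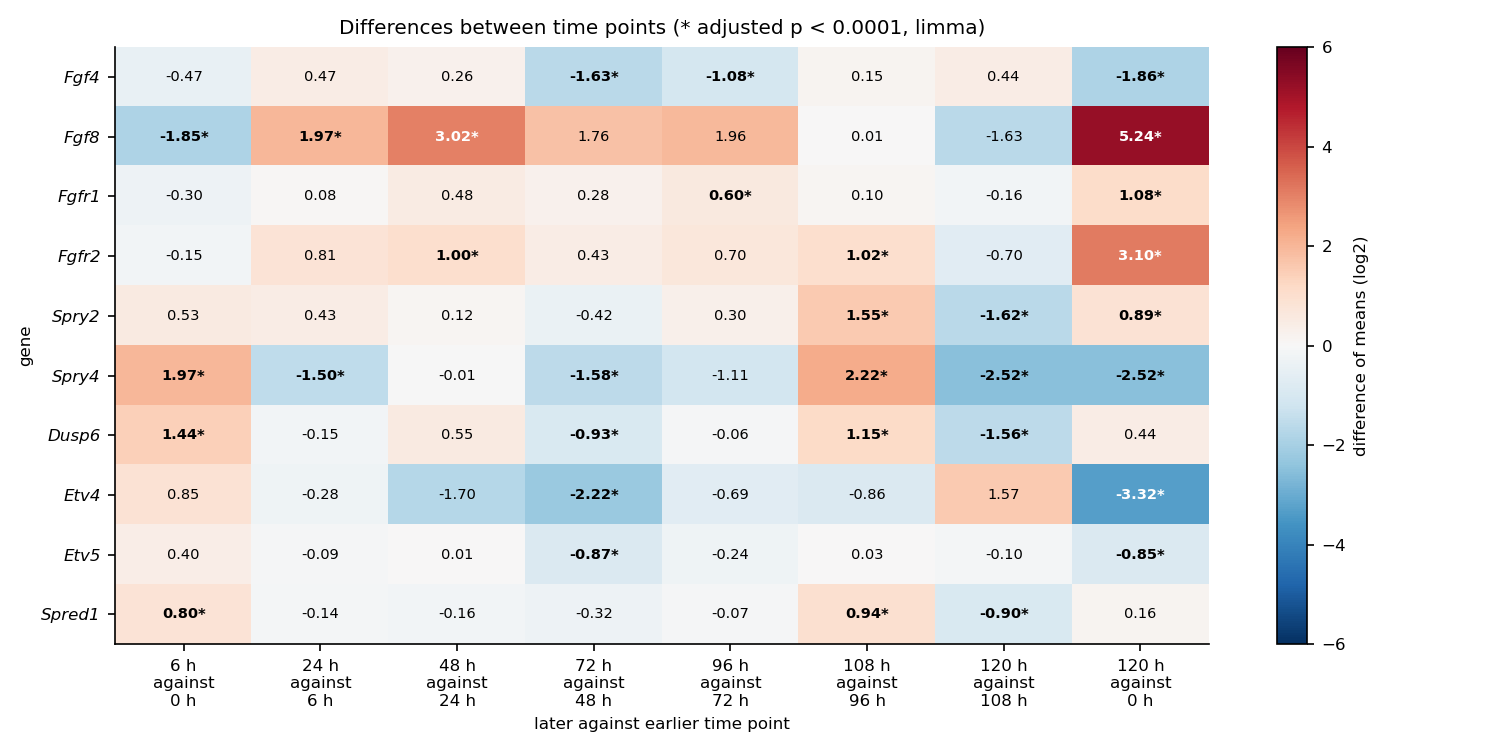
Difference between the means of the later and the earlier time point in log2 units, as numbers and colour, for each gene (rows) and comparison (columns). Asterisks and bold mark an adjusted p under 0.0001 by limma. The inhibitors' positive values at 108 h against 96 h turn negative at 120 h against 108 h, while the Etv4 values are negative in each step between 6 h and 108 h.

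Of 117 other genes of the pathway in 7 lists, 102 are in the files. At 6 h against 0 h, 27 of the 102 were higher and 17 lower, beside 11.8% and 14.5% of all genes. Among 19 ERK-responsive transcription factors and targets 10 were higher and 2 lower, with a median difference of 1.21, and among 19 other feedback inhibitors 6 were higher and 2 lower (median 0.28). The kinases and small GTPases of the RAS, RAF, MEK and ERK list had 5 of 17 higher and 2 lower. Of the 10 other ligands 2 were higher and 4 lower, and of 12 adaptors and exchange factors 1 was higher and 3 lower. The 13 genes listed as receptors and co-receptors, which include the FGF-binding proteins Fgfbp1 and Fgfbp3, had 2 higher and 3 lower. Of 12 genes listed for heparan sulfate, the sugar chains that FGFs need to bind, 1 was higher and 1 lower. The median difference of all genes at this step was -0.047, and that of the 10 genes was 0.47.

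By gene, the largest called rise among the targets at 6 h was that of the immediate early factor Egr3, with 1 and 0 reads at 0 h and 50 and 20 at 6 h (adjusted p = 2.35e-05, limma). Among the inhibitors it was that of the phosphatase Dusp8, with 6 and 2 reads at 0 h and 57 and 29 at 6 h (3.49, SE 0.34, adjusted p = 2.21e-09). The ERK phosphatases Dusp5 and Dusp4 rose by 2.81 (SE 0.16, adjusted p = 8.22e-14) and 2.43 (SE 0.123, adjusted p = 9.8e-15), and Egr1 by 1.67 (SE 0.23, adjusted p = 7.13e-07). Spry1 differed by -0.61 (SE 0.174, adjusted p = 0.00383) and Fos by 1.0 (SE 0.266, adjusted p = 0.00223), without passing the threshold. Markers of cell types also differed between 0 h and 6 h. The neuroectoderm markers summed to 17.7 CPM in replicate A and 14.4 CPM in replicate B at 0 h and to 63.3 and 57.7 CPM at 6 h, most of it Nes, which had 58.4 and 53.2 CPM at 6 h. The sum of the feeder cell markers went from 24.2 and 28 CPM to 12.2 and 11.8 CPM, and that of the 6 ES cell markers from 3404 and 3669 CPM to 4190 and 4296 CPM. The ES cell markers did not move alike. Esrrb went from 475 and 437 CPM to 700 and 678 CPM, whereas Klf4 went from 338 and 351 CPM to 139 and 138 CPM. The part of these cells in the 6 h differences was not tested.

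At 108 h against 96 h, 20 of the 102 genes were higher and 3 lower, beside 3.85% and 3.13% of all genes. Of 19 ERK-responsive genes 7 were higher and 0 lower (median difference 1.18), and of 19 other feedback inhibitors 6 were higher and 0 lower (median 0.66). The median of all genes was 0.0019, and that of the 10 genes 0.54. In the RAS, RAF, MEK and ERK list 2 of 17 were higher and 0 lower. Among adaptors and exchange factors 1 of 12 was higher and 1 lower. Of the 12 heparan sulfate genes 1 was higher and 0 lower. Of the other ligands 1 of 10 was higher and 1 lower, and of the 13 genes listed as receptors and co-receptors 2 were higher and 1 lower. With 102 h in place of 96 h, 10 of the 102 were higher and 0 lower, beside 1.37% and 0.672% of all genes: 5 ERK-responsive genes, 4 inhibitors and 1 of the receptors and co-receptors.

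Dusp5 rose by 3.34 from 96 h to 108 h (SE 0.16, adjusted p = 2.41e-14, limma) and by 2.31 from 102 h (adjusted p = 1.11e-10). Dusp4 rose by 0.96 (SE 0.123, adjusted p = 1.09e-06) and from 102 h by 0.76 (adjusted p = 8.08e-05). The calls of Egr1, Fos, Il17rd and Fgf5 were lost against 102 h. Egr1 rose by 2.19 from 96 h (SE 0.23, adjusted p = 4.27e-08) and differed by 1.29 from 102 h (adjusted p = 0.00024), and Fos rose by 1.65 (SE 0.266, adjusted p = 2.63e-05) and differed by 1.51 (adjusted p = 0.000199). Il17rd rose by 1.02 (SE 0.157, adjusted p = 1.47e-05) against 0.49 from 102 h (adjusted p = 0.0327), and Fgf5 by 1.39 (SE 0.176, adjusted p = 8.68e-07) against 0.67 (adjusted p = 0.00882). By 120 h, 2 of the 102 genes were higher than at 108 h and 13 lower, beside 2.39% and 1.73% of all genes. Of the 19 ERK-responsive genes 6 were lower and 0 higher, and of the 19 inhibitors 5 were lower and 1 higher. Of the other lists, the ligands had 1 lower (Fgf5) and the adaptors and exchange factors 1 higher (Frs3). The list of receptors and co-receptors had 1 lower, the FGF-binding protein Fgfbp1.

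Per length, the order of the genes turned over during the course. At 0 h it ran from Etv5 (6.60 log2 CPM per kb) and Fgf4 (6.28) through Spry2 (5.36), Etv4 (5.27), Dusp6 (4.15), Spry4 (4.13), Spred1 (3.51) and Fgfr1 (3.13) to Fgf8 (-0.77) and Fgfr2 (-1.74). At 108 h Spry2 led (7.87), followed by Dusp6 (6.15), Fgf8 (6.10), Etv5 (5.84), Spred1 (4.57), Fgfr1 (4.37), Spry4 (4.12), Fgf4 (3.98) and Fgfr2 (2.07), with Etv4 last (0.38). Neighbours whose duplicates overlapped, and which therefore have no clear order, were Dusp6 and Spry4 at 0 h, and Dusp6 and Fgf8, Fgf8 and Etv5, Fgfr1 and Spry4, and Spry4 and Fgf4 at 108 h.

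As a description, the profiles of the 21 means were compared by Pearson's r, with neighbouring times not independent. Fgf8, Fgfr1 and Fgfr2 went together (r from 0.928 to 0.956), as did Fgf4 and Etv5 (0.954), Etv4 and Etv5 (0.921) and Spry4 and Etv5 (0.915). Etv4 ran against Fgf8 (-0.977) and Fgfr1 (-0.973). Among the 4 inhibitors r lay between 0.585 and 0.65 for 5 of the 6 pairs, and Spry2 and Spry4 had 0.152. Among the 11782 genes whose mean reached 1 log2 CPM, the closest profile to Fgf8 was that of Patj (0.989), to Fgfr1 Rab11fip1 (0.985), to Fgfr2 Thsd7a (0.981), to Fgf4 Las1l (0.977), to Etv4 Zfp459 (0.985) and to Etv5 Rrn3 (0.984). For the inhibitors the closest were Uspl1 for Spry4 (0.933), Noct for Spred1 (0.917), Trib1 for Dusp6 (0.904) and Bcar1 for Spry2 (0.888).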

How the data were processed

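Poly-A RNA of 42 libraries was sequenced with a stranded kit. The authors used Trim Galore for trimming, TopHat2 for alignment to mm10, HTSeq for counts on GENCODE vM2 genes, edgeR for scaling by library size and voom for the log transformation. Tool versions are not given in the sources used here. The deposited values are log2 CPM, 1 per gene and library, for 14296 genes. Under the voom formula each value gives back a whole read count with an error of at most 2.91e-08, and reads quoted in the text are these. Applied to them, voom on them returned the deposited values to within 3.53e-10. Gene identifiers were matched to symbols through GENCODE vM21 (14177 of 14296), and exon lengths are its merged exons. The vM21 spans of Fgf4 (chr7:144847367-144865243) and Fgfr2 (chr7:130162451-133123350) are wider than their RefSeq positions. How this bears on the per-length values was not tested. Gene positions and promoter windows are from RefSeq on GRCm38.p6, the assembly of mm10. Windows were used for 6 of the 10 genes, Fgf4, Fgfr2, Spry2, Dusp6, Etv5 and Spred1.

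The test was that of limma 3.58.1 (R 4.3.3; functions lmFit and eBayes, trend on), applied to the log2 values as deposited by the authors in 1 fit of 21 time points over 42 libraries, which leaves 21 residual degrees of freedom, with Benjamini-Hochberg adjustment over all 14296 genes within each of 8 comparisons and a threshold of 0.0001. The script was tested on simulated data. Intervals are 95%. The sources call the courses biological duplicates, and the letters A and B come from the labels. As a check, residuals of libraries that share a letter were correlated over 210 pairs of time points: the mean was 0.0795, with a range from -0.474 to 0.598, so the letter was kept out of the model and used as a block in an alternative. Other alternatives were voom weights, quantile normalization, a filter at a mean of 1 log2 CPM, log2(CPM + 1), a threshold of 0.05, adjustment over the 8 comparisons together and leaving out each library; neighbouring time points were added after the data had been seen. The members and gene lists were chosen with earlier results of these data known. Genes outside the 10 could be named if they had the largest called rise or fall of their list in a comparison, or are Fgf5, Fgf15, Fgfr3, Fgfr4, Spry1, Dusp4, Il17rd, Egr1 or Fos, or had the profile closest to 1 of the 10. Fgf17, and Dusp5 at 6 h against 0 h, were named after their values were seen. Python 3.11.15 with pandas 2.3.3, numpy 2.4.6, scipy 1.17.1 and matplotlib 3.10.9 was used.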

Additional observations from a re-analysis of the deposited data

How the results depend on the processing

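With 2 libraries per time point, leaving out 1 widens every error, and the count of the 10 genes called then ran from 2 to 4 at 6 h against 0 h (4 with all libraries), 0 to 2 at 24 h against 6 h (2), 1 to 1 at 48 h against 24 h (2), 2 to 4 at 72 h against 48 h (5), 1 to 4 at 96 h against 72 h (2), 3 to 6 at 108 h against 96 h (5), 3 to 4 at 120 h against 108 h (4) and 6 to 6 at 120 h against 0 h (8), and stayed at 10 for the F-test. Voom weights and log2(CPM + 1) each left 1 call at 24 h against 6 h. Quantile normalization left 1 at 48 h against 24 h and 3 at 72 h against 48 h. A threshold of 0.05 gave 8 calls at 6 h against 0 h, 5 at 24 h against 6 h, 5 at 48 h against 24 h, 10 at 72 h against 48 h, 5 at 96 h against 72 h and 8 at 120 h against 108 h. Counts under the other alternatives were within 1.5 times of those reported. Signs turned only for differences that had not passed the threshold. Under quantile normalization these were Fgfr2 at 6 h against 0 h (0.26), Etv5 at 48 h against 24 h (-0.075), 108 h against 96 h (-0.19) and 120 h against 108 h (0.060), and Fgf8 (-0.15) and Fgfr1 (-0.089) at 108 h against 96 h. Leaving out 1 library, the ranges that crossed 0 were -0.034 to 0.019 for Spry4 and -0.047 to 0.060 for Etv5 at 48 h against 24 h. At 96 h against 72 h they were -0.051 to 0.66 for Spry2, -0.24 to 0.12 for Dusp6, -1.91 to 0.54 for Etv4, -0.59 to 0.11 for Etv5 and -0.16 to 0.012 for Spred1. At 108 h against 96 h they were -0.0046 to 0.30 for Fgf4, -0.32 to 0.33 for Fgf8, -2.08 to 0.36 for Etv4 and -0.32 to 0.38 for Etv5, and at 120 h against 108 h -0.25 to 0.053 for Etv5. The shift that quantile normalization gave to a gene's difference had a median over all genes of at most 0.091 in size in any comparison. The cause of these turns was not tested.

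With the replicate block 6 genes were called at 72 h against 48 h and 3 at 96 h against 72 h, Fgf8 being the gene added (1.76, adjusted p = 4.47e-05, and 1.96, adjusted p = 2.58e-05, limma), and no other call of the 10 genes changed. Depth limits Fgf8 up to 30 h. Up to 12 h 3 to 21 reads were counted, and replicates A and B had 16 and 15 at 18 h, 28 and 26 at 24 h, and 31 and 8 at 30 h.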
